A study of Rattus norvegicus with 4 samples.

Results

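The genes described here carry fatty acids from the blood side of the cell to the electron transport chain of the mitochondrion. A list of 36 gene names, ordered by step, was matched to the deposited annotation, and 35 of the 36 names were found among the 32883 genes of the count table. No row carried the name Cd36, so this fatty acid translocase was not analysed here. Of the 35 genes, 34 passed the filter on low counts and entered the test, and Ucp3 did not. The list holds 3 measured genes of fatty acid delivery and uptake, 5 of activation to acyl-CoA, 6 of carnitine supply and shuttle and 9 of the beta-oxidation spiral. It also holds 4 auxiliary enzymes for unsaturated chains, 3 genes of electron transfer and 5 that remove malonyl-CoA, split acyl-CoA or encode uncoupling proteins.

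RNA depleted of ribosomal RNA was sequenced with strand information from cultured ventricular cardiomyocytes of Sprague-Dawley rats at postnatal day 2. Cells received the adrenergic agonist phenylephrine (PE), which drives hypertrophic growth of cultured heart muscle cells, at 20 µM for 24 h (2 libraries) or were left untreated as controls (2 libraries). Both groups were kept in serum-containing, high-glucose medium after a settling step meant to remove other cell types, so these are mixed primary cultures without a sort. The labels do not say whether libraries of a group came from separate cultures, so p-values measure the spread between libraries, which may be technical.

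In the heart, lipoprotein lipase releases fatty acids from triglyceride, transport and binding proteins bring them in, and acyl-CoA synthetases trap them as acyl-CoA. The carnitine palmitoyltransferase CPT1 on the outer mitochondrial membrane controls entry and is inhibited by malonyl-CoA, and each turn of the spiral then shortens the chain and yields acetyl-CoA. Electrons of the acyl-CoA dehydrogenases pass through the electron transfer flavoprotein to ubiquinone. The heart turns to this fuel in the days after birth, and reduced expression of these genes is a known feature of hypertrophic growth.

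Total counts were 45637881 to 56948370 per library. Genes named with the prefix Mt-, those of the mitochondrial genome, took 6.04% of counts in control replicate 1, 11.2% in control replicate 2, and 4.49% and 4.62% in the PE libraries. Summed levels of 9 measured cardiomyocyte markers were 25780 and 26210 CPM in the controls and 26538 and 28609 CPM with PE. CPM are counts scaled to the library's total with the trimmed mean of M values (TMM). None of the 9 was called lower and 1 was called higher. Their log2 fold changes (PE over control) had a median of -0.26 and were negative in 5. Both PE libraries lay below both controls in 4 and above them in 3. DESeq2 called 3 in either direction, and 4 had an unadjusted p under 0.05 in edgeR. Of other cell types, 10 fibroblast markers summed to 18263 and 16410 CPM in the controls and 10119 and 10030 CPM with PE. Of the 9 tested, 3 were called lower and none higher. The fibroblast markers did not all move together, with 5 negative and 4 positive log2 fold changes, from -1.99 to 0.65. Endothelial markers (9 measured) summed to 241 and 238 CPM against 168 and 176 CPM, with 5 called lower and 1 higher, and macrophage markers (9 measured) to 319 and 362 CPM against 238 and 212 CPM, with 3 called lower and none higher. Mesothelial markers (6 measured) summed to 202 and 168 CPM against 99.8 and 110 CPM, with 3 called lower and 1 higher. For smooth muscle and pericyte markers (10 measured) the sums were 1773 and 1236 CPM against 1367 and 1627 CPM, with 2 called in each direction. Adipocyte markers (10 measured) summed to 93.8 and 80.0 CPM against 67.3 and 65.1 CPM, and none of the 3 tested passed in edgeR or DESeq2, with 1 at an unadjusted p under 0.05. Of these 10 genes, Adipoq, Lep, Plin1, Retn and Ucp1 were at or near 0 in every library. Most of the sum came from Cidea and Lipe. Cidea had 71.8 and 61.8 CPM in the controls and 51.5 and 48.4 CPM with PE. Lipe had 19.9 and 17.2 CPM against 14.7 and 15.5 CPM. Beside these counts of markers, 8.30% of all tested genes were called lower and 7.39% higher, in the test described below. The part of these other cells in the results on fatty acid genes was not tested, and fewer cells of a type and less RNA per cell cannot be told apart in bulk RNA.

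With PE, 8 of the 34 tested fatty acid genes fell, 4 rose and 22 did not pass the test. The genes that fell were Lpl, Acsl6, Cpt1a, Cpt1b, Hadh, Acaa2, Ech1 and Etfb. Each of the steps from delivery to electron transfer thus had at least 1 member that fell. For activation this was only the low-count Acsl6, and for electron transfer only Etfb. Those that rose were the acyl-CoA synthetases Acsl3, Acsl4 and Acsl5 and the thioesterase gene Acot1. A call means a Benjamini-Hochberg adjusted p under 0.05 over all 15257 genes tested, in edgeR's quasi-likelihood test. The share of fatty acid genes called lower was 23.5%, beside 8.30% of all tested genes, and the share called higher was 11.8%, beside 7.39%. Among all 34, log2 fold changes (PE over control) were negative in 25 and had a median of -0.34, while the median over all tested genes was -0.0064. Fewer genes passed without either PE library and more without either control library, over all tested genes as well as over these 34. The median of the 34 was -0.24 without control replicate 1 and -0.34 without PE replicate 1. The genes Lpl, Acsl6, Hadh and Ech1 fell, and Acsl3 and Acsl4 rose, whichever library was left out.

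Counted by library, both PE libraries lay below both controls for 19 of the 34 genes and above them for 7, and the groups overlapped for 8. The groups were thus apart for 26 of 34, beside 56.7% of all tested genes, of which 28.1% lay below and 28.5% above. All 12 genes that passed the test were among those without overlap. Of the 22 that did not pass, 11 lay below, 3 above and 8 overlapped.

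In DESeq2, 9 of the fatty acid genes fell, beside 8.20% of all genes tested by it, and 4 rose, beside 7.65%. The 8 genes that fell in edgeR were joined by Fabp3, and Ucp2 stood in place of Acot1 among those that rose. In the authors' deposited table, the same 9 genes were lower at an adjusted p under 0.05 (8.65% of all its genes with an adjusted p), and Acsl3, Acsl4, Acsl5 and Ucp2 were higher (8.13%).

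**Figure D1:**
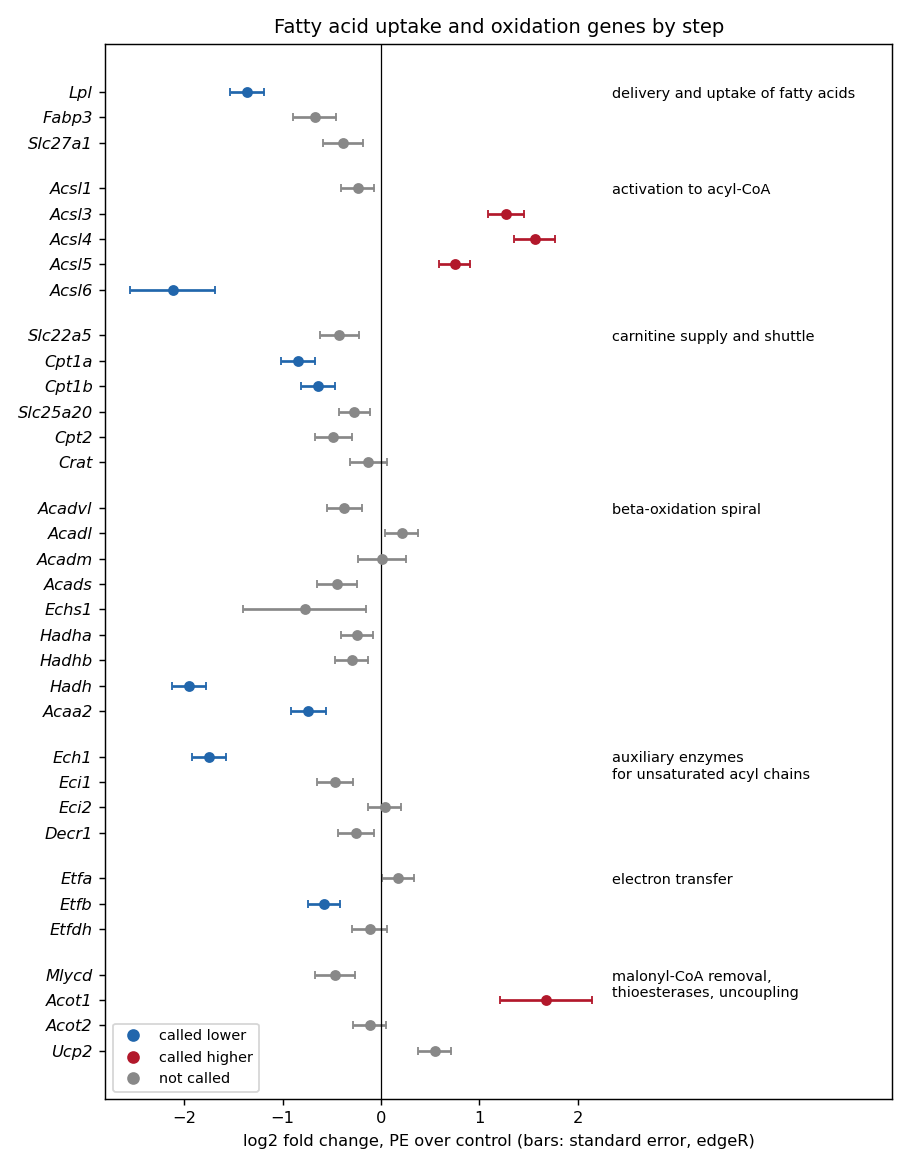
Log2 fold change of each tested fatty acid gene, PE over control, on the horizontal axis, with genes grouped by step down the vertical axis, bars showing the standard error from edgeR and colour the call. The activation step alone holds called genes on both sides of zero, from Acsl6 at -2.12 to Acsl4 at 1.56.

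The steps differed in direction when summarised by their medians, which are given as descriptions with no test. The median log2 fold change was -0.67 for uptake (3 genes), -0.45 for carnitine supply and shuttle (6 genes), -0.37 for the spiral (9 genes) and -0.36 for the auxiliary enzymes (4 genes). The spiral median moved to -0.17 without control replicate 1 and -0.55 without control replicate 2. The median was -0.11 for electron transfer (3 genes), and that value changed sign to 0.044 without control replicate 2 and to 0.026 without PE replicate 2. Activation stood at 0.75 (5 genes) and the group of malonyl-CoA removal, thioesterases and uncoupling proteins at 0.22 (4 tested genes), or 0.14 without control replicate 2. With the 5 activation genes set aside, 7 of 29 genes fell and 1 rose, the latter being Acot1.

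Lpl (ENSRNOG00000012181), which encodes the lipoprotein lipase that frees fatty acids from circulating triglyceride, fell. Its level was 432 and 511 CPM in the controls and 193 and 173 CPM with PE, replicate 1 before replicate 2 here and throughout. Both PE libraries were far below both controls, and the fall of 2.57-fold was larger than the spread within either group (log2 fold change -1.36 ± 0.17 SE, edgeR adjusted p = 0.000501, n = 2 each). Lpl is also made by macrophages and other non-muscle cells, whose markers are given above. Fabp3, the fatty acid binding protein of heart muscle, had 341 and 549 CPM in the controls and 288 and 271 CPM with PE. The groups did not overlap, but the controls were 0.69 apart on the log2 scale, and Fabp3 did not pass (-0.67 ± 0.22, edgeR adjusted p = 0.0666). DESeq2 called it (adjusted p = 0.0242), as did edgeR with library sizes alone (adjusted p = 0.0395) and edgeR on unfiltered genes (adjusted p = 0.00216), and it was called at -0.97 without control replicate 1 and not called at -0.29 without control replicate 2. Slc27a1, a fatty acid transport protein, had 64.1 and 43.7 CPM in the controls and 38.1 and 44.5 CPM with PE, with overlap between groups. It did not pass (-0.38 ± 0.21, edgeR adjusted p = 0.257), and its value rested on control replicate 1, at -0.074 without that library and -0.63, called, without control replicate 2.

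Long-chain acyl-CoA synthetases join fatty acids to coenzyme A, and the isoforms differ in the fate of the product. ACSL1 is the main form of the adult heart, ACSL3 is found at lipid droplets and the endoplasmic reticulum, and ACSL4 prefers arachidonate and other polyunsaturated chains. Acsl1 (ENSRNOG00000010633) had 523 and 549 CPM in the controls and 487 and 422 CPM with PE. Its PE libraries were slightly below the controls and it did not pass (-0.24 ± 0.17, edgeR adjusted p = 0.393). Acsl4 (ENSRNOG00000019180) had 58.2 and 82.0 CPM in the controls and 229 and 185 CPM with PE. It rose 2.95-fold, more than the spread within either group (log2 fold change 1.56 ± 0.21, edgeR adjusted p = 0.000642, n = 2 each). Acsl3 (ENSRNOG00000014718) had 50.1 and 66.2 CPM in the controls and 148 and 133 CPM with PE, and rose 2.42-fold (1.27 ± 0.18, edgeR adjusted p = 0.00114). Acsl5 (ENSRNOG00000016265), a form tied to both mitochondria and the endoplasmic reticulum, had 91.0 and 98.9 CPM in the controls and 168 and 151 CPM with PE. It rose 1.68-fold (0.75 ± 0.16, edgeR adjusted p = 0.0102), a call that was lost with either PE library left out, at 0.67 (adjusted p = 0.296, PE replicate 1 out) and 0.83 (adjusted p = 0.123, PE replicate 2 out).

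Acsl6 (ENSRNOG00000026745), a form best known from brain, was low, with 97 and 114 counts in the controls and 39 and 13 counts with PE. It fell 4.34-fold (log2 fold change -2.12 ± 0.43, edgeR adjusted p = 0.00824), and its size depended on the PE library used, at -2.95 with PE replicate 1 left out and -1.62 with PE replicate 2 left out. Within libraries, the count ratio of Acsl1 to Acsl4 was 8.98 and 6.69 in the controls and 2.12 and 2.28 with PE, and that of Acsl1 to Acsl3 was 10.4 and 8.30 against 3.29 and 3.17. Both ratios were lower in both PE libraries, with log2 differences of -1.82 and -1.53, while libraries of a group differed by at most 0.42 and 0.33. Counts of different genes carry unequal transcript lengths, so these are not ratios of molecules. The groups were apart for each of the 5 synthetases, with PE above control for Acsl3, Acsl4 and Acsl5 and below for Acsl1 and Acsl6.

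Upstream sequence is shown for the synthetases with the largest rises, Acsl3 and Acsl4, to let it be compared with that of genes that fell. The RefSeq window of build GRCr8 runs from 250 bases before the annotated start to 50 after it, at chr9:87563351-87563650, plus strand, and chrX:110803212-110803511, minus strand. Capitals mark the GC box GGGCGG and the nuclear receptor hexamer AGGTCA, each on either strand.
Acsl3: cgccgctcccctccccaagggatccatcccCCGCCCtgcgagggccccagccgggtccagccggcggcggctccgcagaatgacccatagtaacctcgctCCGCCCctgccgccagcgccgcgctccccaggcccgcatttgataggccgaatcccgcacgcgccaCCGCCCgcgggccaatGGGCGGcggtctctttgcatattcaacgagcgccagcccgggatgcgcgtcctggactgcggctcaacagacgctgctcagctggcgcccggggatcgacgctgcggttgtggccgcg
Acsl4: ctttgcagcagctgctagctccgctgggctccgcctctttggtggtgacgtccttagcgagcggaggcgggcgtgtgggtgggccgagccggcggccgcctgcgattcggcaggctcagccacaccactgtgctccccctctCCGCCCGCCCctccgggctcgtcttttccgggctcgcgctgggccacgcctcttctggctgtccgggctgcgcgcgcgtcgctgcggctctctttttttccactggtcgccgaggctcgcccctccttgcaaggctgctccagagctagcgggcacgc

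The Acsl3 window held 4 copies of the GC box and the Acsl4 window 2 overlapping copies, and neither held the hexamer.

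**Figure D2:**
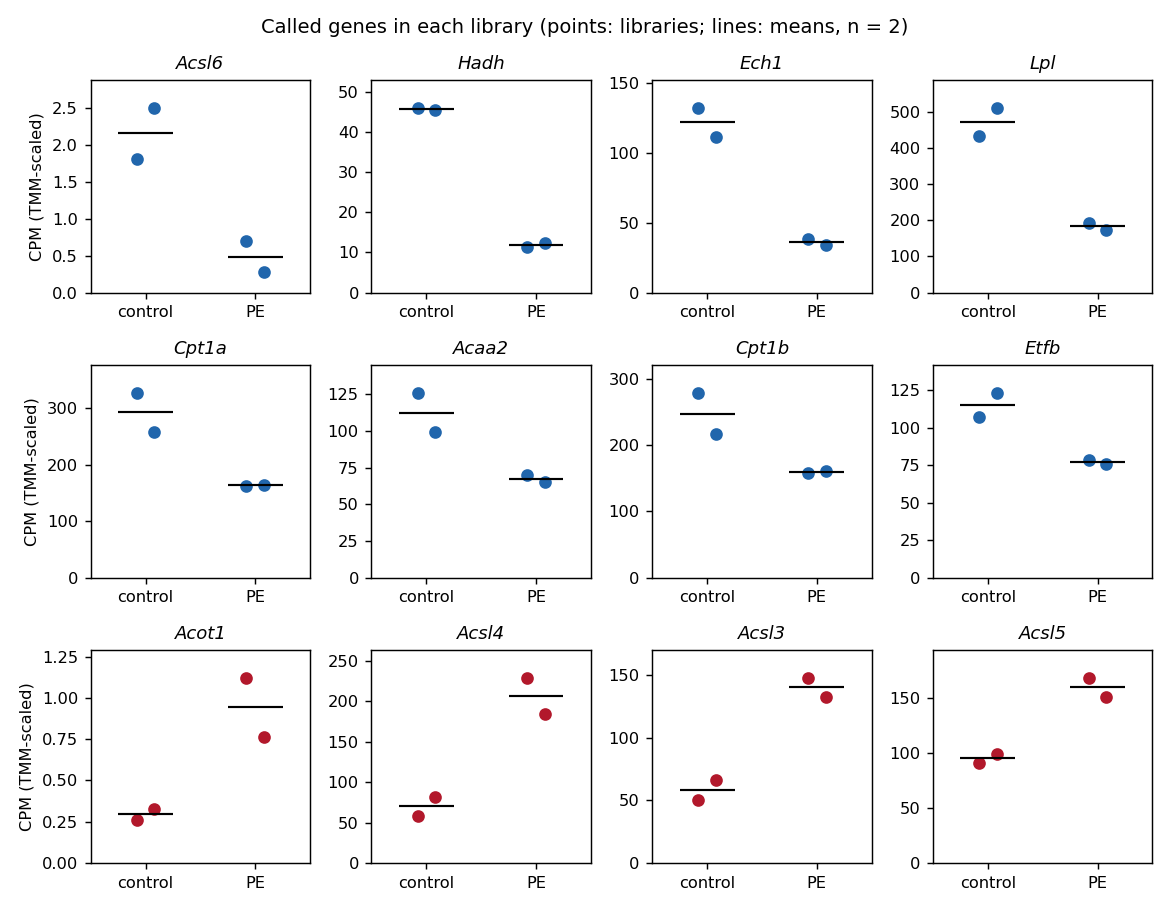
Level of the 12 called genes in each library, in TMM-scaled CPM from 0 on the vertical axis, with control and PE on the horizontal axis, 1 point per library and a line at the mean of 2. PE points lie below both controls for the 8 blue genes and above both for the 4 red genes.

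In the carnitine shuttle, both genes of CPT1 fell. Cpt1a (ENSRNOG00000014254), the form of liver and of the fetal and newborn heart, had 327 and 258 CPM in the controls and 162 and 165 CPM with PE. Cpt1b (ENSRNOG00000010438), the muscle form, had 279 and 216 CPM in the controls and 157 and 160 CPM with PE. The PE libraries of each gene lay close together and below both controls, while control replicate 1 was the higher control for both. The falls were 1.79-fold for Cpt1a (-0.84 ± 0.17, edgeR adjusted p = 0.00846) and 1.56-fold for Cpt1b (-0.64 ± 0.17, edgeR adjusted p = 0.0325). Both calls were lost when either PE library was left out. The log2 fold changes of Cpt1a were then -0.82 and -0.84, with edgeR adjusted p = 0.182 (PE replicate 1 out) and 0.155 (PE replicate 2 out). Those of Cpt1b were -0.62 and -0.65, with edgeR adjusted p = 0.413 and 0.363 in the same order. With a replicate block, Cpt1b was also lost (adjusted p = 0.113).

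The ratio of Cpt1b to Cpt1a counts was 0.853 and 0.839 in the controls and 0.970 and 0.974 with PE. A ratio within a library does not depend on scaling. The PE ratios were above both controls, by 0.20 on the log2 scale, and the libraries of a group differed by at most 0.025. An exact permutation test of 2 libraries against 2 cannot give a two-sided p below 0.333, so ratios are described without a test.

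The other 4 genes of the shuttle did not pass. Slc25a20, the carnitine-acylcarnitine carrier of the inner membrane, had 81.1 and 82.4 CPM in the controls and 71.2 and 64.2 CPM with PE (-0.27 ± 0.16, edgeR adjusted p = 0.303). Cpt2, which rebuilds acyl-CoA in the matrix, was at -0.48 ± 0.18 (edgeR adjusted p = 0.111) and stood at -0.68, called, without control replicate 2 and at -0.24, not called, without control replicate 1. Slc22a5, the carnitine importer of the cell membrane, was at -0.42 ± 0.20 (edgeR adjusted p = 0.205). Crat, the carnitine acetyltransferase, had 235 and 175 CPM in the controls and 173 and 203 CPM with PE, so its groups overlapped, and its log2 fold change of -0.13 turned to 0.11 without control replicate 1. All 6 shuttle genes had negative log2 fold changes, beside 50.7% of all tested genes, and for 5 of them both PE libraries lay below both controls, beside 28.1%.

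The Cpt1a window is shown as that of a called gene of the shuttle, at chr1:209995910-209996209, plus strand of GRCr8, and it held neither motif.
Cpt1a: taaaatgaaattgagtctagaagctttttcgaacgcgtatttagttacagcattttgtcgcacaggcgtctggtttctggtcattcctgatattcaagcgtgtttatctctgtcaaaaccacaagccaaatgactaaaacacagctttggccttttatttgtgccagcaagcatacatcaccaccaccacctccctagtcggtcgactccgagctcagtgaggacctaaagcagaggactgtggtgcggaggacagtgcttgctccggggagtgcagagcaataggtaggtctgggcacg

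Within the beta-oxidation spiral, Hadh and Acaa2 fell and the other 7 genes did not pass. Hadh (ENSRNOG00000010697) encodes the matrix dehydrogenase of short and medium 3-hydroxyacyl chains. It had 46.0 and 45.5 CPM in the controls and 11.4 and 12.3 CPM with PE. The libraries of each group nearly coincided, and the difference of 3.86-fold was many times their spread (-1.95 ± 0.17, edgeR adjusted p = 6.57e-05). Acaa2 (ENSRNOG00000013766), a thiolase of the last reaction, had 126 and 99.1 CPM in the controls and 70.2 and 65.0 CPM with PE, and fell 1.67-fold (-0.74 ± 0.18, edgeR adjusted p = 0.0176). Its call was lost with either PE library left out, at -0.79 (adjusted p = 0.21, PE replicate 1 out) and -0.68 (adjusted p = 0.325, PE replicate 2 out), and with a replicate block (adjusted p = 0.0576).

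Hadha and Hadhb, which encode the alpha and beta subunits of the trifunctional protein for long chains, were much less different between groups than Hadh. Hadha had 531 and 472 CPM in the controls and 424 and 421 CPM with PE (-0.25 ± 0.16, edgeR adjusted p = 0.363). Hadhb had 219 and 244 CPM in the controls and 204 and 172 CPM with PE (-0.30 ± 0.17, edgeR adjusted p = 0.278), and was called when control replicate 1 was left out, at -0.37, while it was at -0.22 without control replicate 2 and -0.17 without PE replicate 2, not called. The count ratio of Hadha to Hadhb was 2.42 and 1.93 in the controls and 2.07 and 2.44 with PE, so the groups overlapped. The count ratio of Hadh to Hadha was 0.0867 and 0.0965 in the controls and 0.0269 and 0.0291 with PE, lower in both PE libraries with a log2 difference of -1.71, while libraries of a group differed by at most 0.15.

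Hadha and Hadhb are transcribed in opposite directions from start sites 301 bases apart on chromosome 6 of GRCr8, and their windows share 200 bases. Their windows are shown with that of Hadh because the paired genes had like fold changes and Hadh did not follow them. Hadha lies at chr6:31907551-31907850, plus strand, Hadhb at chr6:31907451-31907750, minus strand, and Hadh at chr2:222504397-222504696, minus strand.
Hadha: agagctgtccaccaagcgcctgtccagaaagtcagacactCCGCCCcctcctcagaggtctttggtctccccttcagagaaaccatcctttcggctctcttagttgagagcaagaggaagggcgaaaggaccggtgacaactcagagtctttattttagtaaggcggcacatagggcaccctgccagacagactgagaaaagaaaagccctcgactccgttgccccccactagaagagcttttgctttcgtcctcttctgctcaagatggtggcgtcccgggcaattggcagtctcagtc
Hadhb: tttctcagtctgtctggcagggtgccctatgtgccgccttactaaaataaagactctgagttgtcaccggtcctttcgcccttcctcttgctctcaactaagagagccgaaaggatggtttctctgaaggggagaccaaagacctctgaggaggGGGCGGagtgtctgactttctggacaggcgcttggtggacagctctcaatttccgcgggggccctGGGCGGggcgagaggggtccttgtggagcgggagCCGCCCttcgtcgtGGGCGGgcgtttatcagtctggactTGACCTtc
Hadh: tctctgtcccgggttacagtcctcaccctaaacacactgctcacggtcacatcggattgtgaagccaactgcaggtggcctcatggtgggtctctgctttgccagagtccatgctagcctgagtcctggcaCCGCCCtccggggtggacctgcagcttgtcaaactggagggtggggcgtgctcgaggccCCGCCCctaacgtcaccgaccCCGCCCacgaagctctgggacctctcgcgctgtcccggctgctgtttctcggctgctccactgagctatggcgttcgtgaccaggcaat

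The Hadha window held 1 GC box, the Hadhb window 4 and 1 hexamer, and the Hadh window 3 GC boxes and no hexamer. The GC box of Hadha lies in the shared bases and is 1 of the 4 counted for Hadhb.

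The acyl-CoA dehydrogenases, which open each turn of the spiral for a range of chain lengths, did not pass. Acadl, of long chains, had 257 and 291 CPM in the controls and 340 and 295 CPM with PE (0.21 ± 0.17, edgeR adjusted p = 0.452), the 1 spiral gene with both PE libraries above both controls. Acadvl and Acads, of very long and short chains, were at -0.37 ± 0.18 and -0.44 ± 0.20 (edgeR adjusted p = 0.197 and 0.181), and both were called without control replicate 2, at -0.55 and -0.67. Without control replicate 1 both were at -0.17 and not called. Acadm, of medium chains, had 70.4 and 118 CPM in the controls and 109 and 80.7 CPM with PE, with full overlap (0.01 ± 0.25, edgeR adjusted p = 0.985). It stood at -0.31 without control replicate 1 and was called higher, at 0.43, without control replicate 2 (adjusted p = 0.0213). The Acadl to Acadm count ratio was 3.65 and 2.46 in the controls and 3.11 and 3.65 with PE, also with overlap. Echs1, the enoyl-CoA hydratase of short chains, had only 29, 12, 8 and 16 counts in control replicates 1 and 2 and PE replicates 1 and 2 (-0.78 ± 0.63, edgeR adjusted p = 0.47). Some other genes known to be abundant in such cultures were near 0 in the same table, such as the collagen gene Col1a2 with 5, 1, 1 and 1 counts beside 183703 to 357488 for Col1a1, a comparison chosen after its values were seen. The low counts of Echs1 therefore need not give its transcript level.

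**Figure D3:**
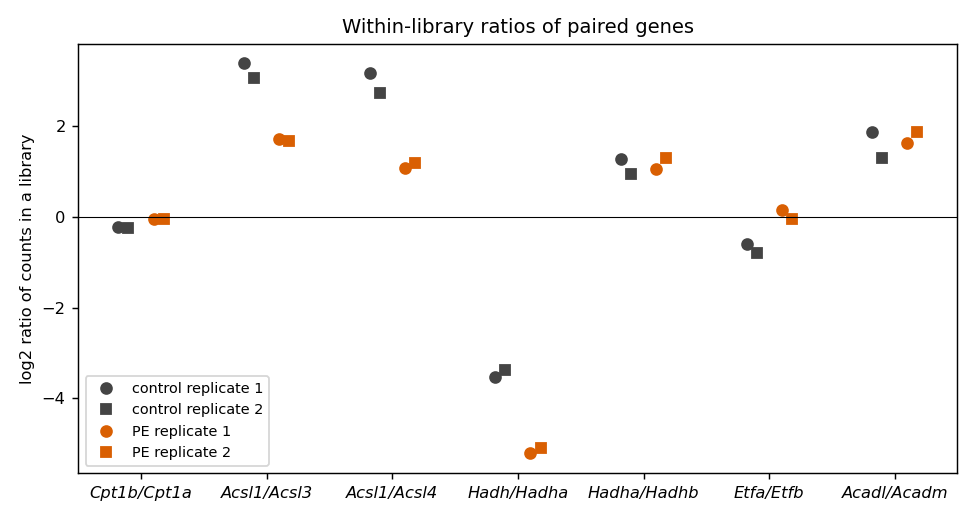
Log2 ratio of the raw counts of paired genes within each library on the vertical axis, pairs on the horizontal axis, grey for control and orange for PE, circles for replicate 1 and squares for replicate 2. Groups are apart for Acsl1 over Acsl3, Acsl1 over Acsl4, Hadh over Hadha, Etfa over Etfb and, by a small step, Cpt1b over Cpt1a, and they overlap for Hadha over Hadhb and Acadl over Acadm.

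Among the enzymes that prepare unsaturated chains for the spiral, Ech1 fell. Ech1 (ENSRNOG00000020308), a dienoyl-CoA isomerase, had 132 and 112 CPM in the controls and 38.4 and 34.3 CPM with PE. Both PE libraries were below both controls by far more than the spread within groups, a difference of 3.36-fold (-1.75 ± 0.17, edgeR adjusted p = 0.000136). Its relatives did not pass. Eci1, an enoyl-CoA isomerase, was at -0.46 ± 0.18 (edgeR adjusted p = 0.117) and stood at -0.65, called, without control replicate 2 and at -0.25, not called, without control replicate 1. Eci2, found in peroxisomes as well, had 82.4 and 87.1 CPM in the controls and 95.8 and 78.2 CPM with PE (0.04 ± 0.17, edgeR adjusted p = 0.914). Decr1, the dienoyl-CoA reductase, had 68.6 and 73.7 CPM in the controls and 69.0 and 50.6 CPM with PE (-0.25 ± 0.19, edgeR adjusted p = 0.426).

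The subunits of the electron transfer flavoprotein parted. Etfb (ENSRNOG00000017851), of the beta subunit, had 107 and 124 CPM in the controls and 78.7 and 75.8 CPM with PE, and fell 1.49-fold (-0.58 ± 0.16, edgeR adjusted p = 0.0355). Its call too was lost with either PE library left out, at -0.60 (adjusted p = 0.435, PE replicate 1 out) and -0.55 (adjusted p = 0.492, PE replicate 2 out), and with a replicate block (adjusted p = 0.174). Etfa, of the alpha subunit, had 70.8 and 71.4 CPM in the controls and 86.8 and 73.6 CPM with PE (0.17 ± 0.16, edgeR adjusted p = 0.542). The count ratio of Etfa to Etfb was 0.659 and 0.578 in the controls and 1.10 and 0.971 with PE. It was higher in both PE libraries, by 0.75 on the log2 scale, against at most 0.19 between libraries of a group. Etfdh, the oxidoreductase that hands the electrons to ubiquinone, had 201 and 247 CPM in the controls and 227 and 187 CPM with PE, with overlap (-0.11 ± 0.18, edgeR adjusted p = 0.729).

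The Etfb window, shown as that of the called electron transfer gene, lies at chr1:102988249-102988548, plus strand of GRCr8 and held 2 GC boxes.
Etfb: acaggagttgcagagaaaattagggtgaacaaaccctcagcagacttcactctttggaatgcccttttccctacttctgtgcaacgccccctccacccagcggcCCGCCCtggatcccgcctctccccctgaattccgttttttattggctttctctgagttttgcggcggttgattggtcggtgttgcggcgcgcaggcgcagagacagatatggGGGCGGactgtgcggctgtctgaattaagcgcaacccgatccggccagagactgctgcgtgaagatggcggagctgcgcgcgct

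Of the genes around the pathway, Mlycd encodes the decarboxylase that removes malonyl-CoA and so relieves CPT1. It had 65.3 and 44.7 CPM in the controls and 36.2 and 43.4 CPM with PE, did not pass (-0.47 ± 0.21, edgeR adjusted p = 0.169), and stood at -0.71, called, without control replicate 2 and at -0.16, not called, without control replicate 1. Ucp2, an inner membrane carrier of the uncoupling protein family, had 331 and 295 CPM in the controls and 417 and 497 CPM with PE. Its PE libraries lay above both controls, but it missed the threshold (0.55 ± 0.17, edgeR adjusted p = 0.0565). DESeq2 called it (adjusted p = 0.0236), and so did edgeR on unfiltered genes (adjusted p = 0.0188). Ucp3, its skeletal muscle relative, had 17 and 9 counts in the controls and 7 and 1 with PE and was not tested.

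Acot2, a mitochondrial thioesterase that frees fatty acids from acyl-CoA, had 63.7 and 57.6 CPM in the controls and 60.0 and 52.2 CPM with PE (-0.11 ± 0.17, edgeR adjusted p = 0.711). Acot1 (ENSRNOG00000055221), its cytosolic relative, had 14 and 15 counts in the controls and 63 and 36 with PE. It rose 3.2-fold in edgeR (1.68 ± 0.46, adjusted p = 0.0345), but not with DESeq2 (adjusted p = 0.0717), in the authors' deposited table (adjusted p = 0.0685) or without PE replicate 1 (1.37, adjusted p = 0.363). Acot genes are near-identical neighbours, so reads shared among them make the low values of Acot1 uncertain.

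Of the 36 names, 30 had an upstream window in the RefSeq table of 33469 windows. Lpl, Cpt1b, Acadl, Acaa2, Ech1 and Decr1 had none, so only 4 of the 8 genes that fell are covered. The GC box occurred on either strand in 18 of the 30, beside 33.1% of all windows. It occurred in 3 of 4 windows of genes that fell, in 2 of 4 of genes that rose and in 13 of 20 of tested genes that did not pass. The median share of G and C was 51.7% over all windows. In the windows shown it ran from 48.3% (Cpt1a) to 72.7% (Acsl3). The part of base composition in the GC box counts was not tested. The hexamer AGGTCA occurred in 7 of the 30, beside 16.2% of all windows, namely Slc27a1, Acadvl, Echs1, Hadhb, Eci1, Eci2 and Ucp3, and in none of the 8 windows of called genes. Its pairing with a spacer base, AGGTCANAGGTCA, known as DR1 and bound by peroxisome proliferator-activated receptors, was found in none of the 30, beside 0.0538% of all windows. The extended form TCAAGGTCA of estrogen-related receptors (0.433% of all windows) and the E-box CACGTG (6.42%) were also in none of the 30. Both longer forms contain the hexamer, so their matches would count among its own. Both are so rare among all windows that finding none in 30 cannot show whether these receptors bind near the genes.

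Agreement between libraries differed by gene, and the control pair was the wider one. In 5 of the 34 genes the controls were more than 0.5 apart on the log2 scale, beside 25.6% of all tested genes, and in 3 of 34 the PE libraries were, beside 11.8%. These controls did not part in one direction. Slc27a1, Mlycd and Echs1 were higher in control replicate 1, by 0.55, 0.55 and 1.04, and Acadm and Fabp3 were higher in control replicate 2, by 0.75 and 0.69. Control replicate 2 was also the library with the larger share of mitochondrial-genome counts, whose part in these values was not tested. With those transcripts left out of the counts, the same 8 genes fell and the same 4 rose.

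Lists of related genes place these values in the wider pathway, each read beside the 8.30% and 7.39% of all tested genes called lower and higher. Those shares are of the fit on all libraries. With a control library left out more genes were called over all, and with a PE library left out fewer. Of 14 other mitochondrial acyl-CoA enzymes, 3 fell, 1 rose and 10 did not pass (median log2 fold change -0.37). Slc25a42, a carrier that brings coenzyme A into the matrix, had 42.7 and 37.5 CPM in the controls and 15.1 and 13.8 CPM with PE and fell (-1.47 ± 0.18, edgeR adjusted p = 0.000365). The thioesterase gene Acot13 and the dehydrogenase gene Acad10 also fell (-1.34 and -1.21), Acad10 not without PE replicate 1. Acot9, a mitochondrial thioesterase gene, was the 1 that rose (0.84), and its call too was lost without PE replicate 1. Acot13 was at -0.89 without control replicate 2. Without control replicate 1, 8 of this list fell, and 6 without control replicate 2. Of 15 peroxisomal genes, 2 fell, none rose and 13 did not pass (median -0.20). These were Pecr, a trans-enoyl-CoA reductase, and Phyh, of alpha-oxidation (-1.30 and -0.73), Phyh not without either PE library. With either control library left out, 5 peroxisomal genes fell, and the median was -0.058 without control replicate 1. Of 13 other uptake and binding genes, 2 fell, Slc27a6 (-1.36) and the caveolin gene Cav1 (-1.02), none rose and 11 did not pass (median -0.20). Cav1 did not pass without PE replicate 2. The median of these uptake and binding genes was -0.36 without control replicate 2. It was 0.0017 without control replicate 1 and -0.064 without PE replicate 1.

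Genes of triglyceride storage and lipolysis changed in both directions, with 6 lower, 3 higher and 10 of 19 not passing (median -0.29, or -0.18 without control replicate 1). The perilipin gene Plin5, whose product ties lipid droplets to mitochondria, had 7.40 and 5.05 CPM in the controls and 0.552 and 0.741 CPM with PE and fell (-3.27 ± 0.31, edgeR adjusted p = 9.9e-05). Plin4, another perilipin, fell by 2.45 ± 0.21 on the log2 scale. Pnpla3, a lipase and acyltransferase gene, rose from 3.35 and 2.52 CPM to 15.2 and 13.2 CPM (2.27 ± 0.22, edgeR adjusted p = 0.000136). The others that rose were Agpat2 (0.90) and Lpin3 (0.66), of triglyceride synthesis, and neither of them passed without PE replicate 2. In the malonyl-CoA list, 6 of 8 genes did not pass. Among these, Acacb, another gene of malonyl-CoA synthesis, had 451 and 341 CPM in the controls and 252 and 273 CPM with PE. Its PE libraries lay below both controls, but it missed the threshold (-0.59 ± 0.18, edgeR adjusted p = 0.0521). DESeq2 called it lower (adjusted p = 0.0202). Acaca, which makes malonyl-CoA for lipid synthesis, rose (0.96 ± 0.16), and Prkab1, of the AMP-activated kinase, fell (-1.03 ± 0.18). Without PE replicate 1 neither passed.

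Of 17 transcriptional regulators of fatty acid genes, 6 fell, none rose and 11 did not pass (median -0.19). The 3 largest falls were those of Rxrg, Klf15 and Ppara. Rxrg, a retinoid receptor gene, had 14.1 and 9.02 CPM in the controls and 0.570 and 0.614 CPM with PE. Ppara, the receptor that senses fatty acids, had 36.4 and 34.1 CPM in the controls and 14.5 and 15.7 CPM with PE (-1.22 ± 0.17, edgeR adjusted p = 0.000965). Without PE replicate 1 the number of regulators that fell was 3. Without control replicate 2, 8 fell and 1 rose (median -0.39), and without control replicate 1 the median was -0.29.

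None of the 16 genes of the tricarboxylic acid cycle, which burns the acetyl-CoA made by the spiral, passed in edgeR (median 0.06) or DESeq2, and 2 had an unadjusted p under 0.05. With either control library left out, when more genes were called over all, some of the cycle's genes were called, in both directions. The median was -0.053 without PE replicate 1. Groups were apart for 6 of the 16, beside 56.7% of all tested genes.

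**Figure D4:**
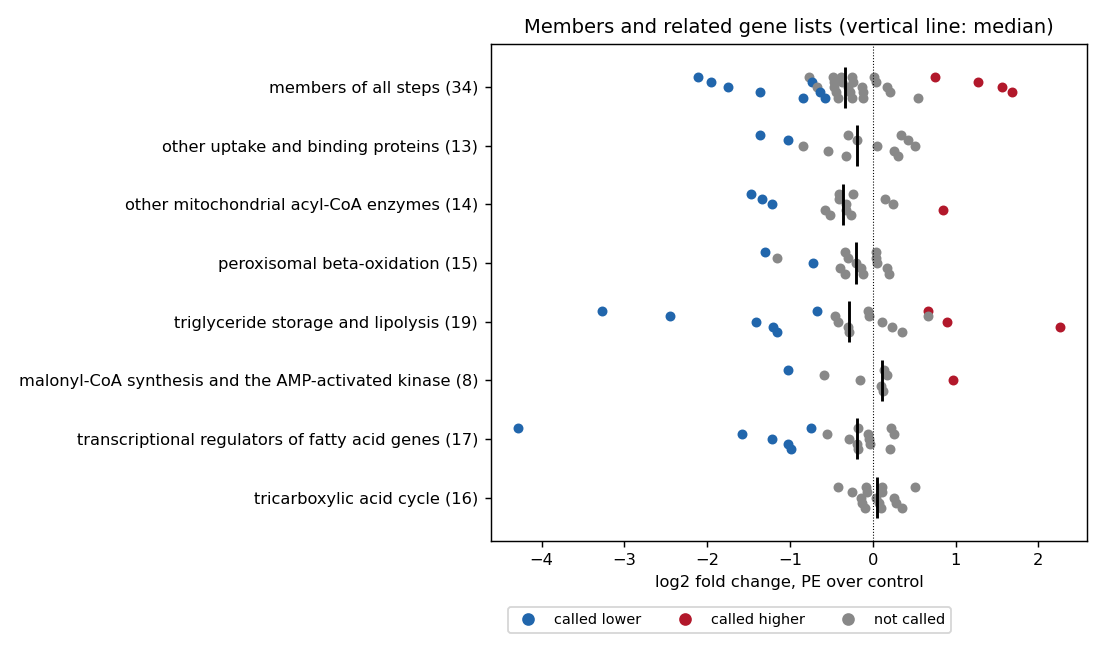
Log2 fold change, PE over control, of each tested gene on the horizontal axis for the fatty acid genes and 7 related lists on the vertical axis, with the number of genes in brackets, colour for the call and a line at the median. The tricarboxylic acid cycle genes lie between -0.42 and 0.51 with none called, and Rxrg lies farthest left at -4.29.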

How the data were processed

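Ribosomal RNA-depleted, strand-specific libraries, 2 from PE-treated and 2 from untreated cells, were grouped by their titles. The authors' deposited table of raw counts per gene was used as deposited. Cutadapt 2.0, STAR 2.4.2a, featureCounts 1.6.4 and the build Rnor_6.0 are named, per the submitters' processing notes, and no source used here gives the annotation or whether counting used strand. Overlapping, antisense and near-identical genes are therefore uncertain. The second deposited table holds the authors' log2 fold changes with standard errors, p-values and adjusted p-values, a test statistic (score) and a mean normalized count (signal), per the file headers. It also supplied the gene names.

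Counts were tested with edgeR 4.0.16 (limma 3.58.1, R 4.3.3) in a quasi-likelihood F test with TMM factors and the default expression filter (minimum count 10, minimum total 15), fitted on all genes and checked on simulated data. Errors of log2 fold changes are standard errors, and CPM are scaled by TMM. DESeq2 1.42.0, library sizes alone, upper-quartile factors, no filter, removal of mitochondrial-genome transcripts, a replicate block and leaving out each library were alternatives. The 2 control libraries differed by far more than counting noise (chi-square per degree of freedom 161), as did the PE libraries (23.4). Every gene of the list is named, with per-library values for called genes and for the most abundant others of each step. Of related lists, up to 3 called genes with the largest change are named, Acot9, Agpat2 and Lpin3 were added after their values were seen, and 1 list is not reported here. Gene lengths were not used, so levels are not compared between genes. The genes and lists were chosen with earlier results of these data known.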

Additional observations from a re-analysis of the deposited data

How the results depend on the processing

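With library sizes alone, upper-quartile factors, DESeq2, no filter, or mitochondrial-genome transcripts left out, 8 or 9 fatty acid genes fell and 4 or 5 rose, and the same 8 genes fell in each of these. Fabp3 was the ninth where there were 9. With DESeq2, Ucp2 took the place of Acot1 among the 4 that rose. No gene of the list that was called in any setting had the opposite sign in another setting where it was called.

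The result depended most on which libraries entered. Leaving out 1 library in turn gave 4 to 14 genes that fell, 2 to 6 that rose, and 1205 to 4755 called over all genes. The lone library of a group is then assumed to vary like the other pair, from which the spread is taken. The median over the fatty acid genes ran from -0.34 to -0.24 and that of electron transfer from -0.26 to 0.044 (0.026 without PE replicate 2). The other step medians kept their sign when a library was left out, that of the spiral between -0.55 and -0.17.

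Replicate numbers were shared between groups only as numbers. With a replicate block, 5 genes fell and 4 rose (Cpt1b, Acaa2 and Etfb lost their calls), and 1964 genes were called over all. Same-numbered libraries deviated in opposite directions (correlation -0.452 across genes). A crossed pairing, chosen after seeing the data, called 15 lower, 5 higher and 4677 over all. Depth limits mainly Echs1, Ucp3, Acot1 and Acsl6, with under 120 counts in each library.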
